A study of Mus musculus with 6 samples.

Results

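A set of 10 transcription factor genes of epidermal stratification and terminal differentiation were examined, Trp63, Klf4, Grhl1, Grhl3, Ehf, Hopx, Ovol1, Cebpa, Zfp750 and Prdm1. They were taken as a fixed list of symbols, and 10 of 10 were found among the 35275 genes of the table. The RNA came from mouse (CD1 IGS strain) back skin epidermis at E16.5, from cells sorted for nuclear green fluorescence. There were 3 K10-spastin libraries, with the genotype label K10rtTA;TREspastin, and 3 control libraries. The promoter of keratin 10, a keratin of suprabasal cells, drives in K10-spastin a doxycycline-dependent activator (rtTA) that turns on spastin, an enzyme that cuts microtubules. Doxycycline chow was given to the dams of both groups from E14.5, and the protocol also lists a TRE-H2B-GFP reporter, the source of the sorted fluorescence. The labels call the other group only "control", and they name neither the transgenes those embryos carried nor the number of embryos behind a library. They call the RNA samples independent without naming animals, and the spread that the p-values rest on, that between these libraries, may be technical.

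Epidermis renews from a basal layer, whose daughters move up through spinous and granular layers and end as a cornified barrier. The p63 protein, encoded by Trp63, sets up and maintains stratified epithelium from the basal layer, and most of the other factors act in suprabasal cells. Klf4 and Grhl3 are needed for the skin barrier, Cebpa helps cells leave the cell cycle as they enter the spinous layer, and Prdm1 (Blimp1) is a repressor of the granular layer.

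The promoters shown are those of Hopx, Grhl3 and Prdm1, which had the largest positive changes described below among the factors matched to a promoter. RefSeq promoters (GRCm38.p6) matched 6 of the 10 factors (Klf4, Grhl1, Grhl3, Hopx, Cebpa and Prdm1). The 250 bases before each start were searched on both strands for AACNGGTT (Grainyhead), TGANTCA (AP-1), CCNCNCCC (KLF), TTGCNNAA (C/EBP) and CCGGAAG (ETS). Hopx has 2 annotated starts on the minus strand, just below the lower coordinate of chr5:77115124-77115373 and of chr5:77095268-77095517. The gene-level values cannot tell these starts apart. Grhl3 (chr4:135573633-135573882) and Prdm1 (chr10:44458749-44458998) are also on the minus strand. Each sequence reads 5′ to 3′ along the gene, and capitals mark motif matches. In Grhl3 the capitals are 2 KLF matches that overlap, and in Prdm1 they are a KLF match and then an AP-1 match.
Hopx, first start: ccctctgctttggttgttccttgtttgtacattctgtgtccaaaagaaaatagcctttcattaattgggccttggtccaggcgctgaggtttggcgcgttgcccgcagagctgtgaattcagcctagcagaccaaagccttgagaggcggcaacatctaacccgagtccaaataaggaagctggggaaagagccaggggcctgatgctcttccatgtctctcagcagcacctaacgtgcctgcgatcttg
Hopx, second start: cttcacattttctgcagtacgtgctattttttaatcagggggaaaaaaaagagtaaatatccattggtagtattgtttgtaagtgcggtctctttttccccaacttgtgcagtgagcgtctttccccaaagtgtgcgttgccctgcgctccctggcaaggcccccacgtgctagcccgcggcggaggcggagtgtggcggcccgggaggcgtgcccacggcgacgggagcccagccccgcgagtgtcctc
Grhl3: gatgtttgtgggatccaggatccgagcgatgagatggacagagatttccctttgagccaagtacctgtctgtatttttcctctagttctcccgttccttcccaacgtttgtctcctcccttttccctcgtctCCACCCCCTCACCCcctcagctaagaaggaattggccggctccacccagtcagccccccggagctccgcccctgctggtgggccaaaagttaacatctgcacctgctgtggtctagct
Prdm1: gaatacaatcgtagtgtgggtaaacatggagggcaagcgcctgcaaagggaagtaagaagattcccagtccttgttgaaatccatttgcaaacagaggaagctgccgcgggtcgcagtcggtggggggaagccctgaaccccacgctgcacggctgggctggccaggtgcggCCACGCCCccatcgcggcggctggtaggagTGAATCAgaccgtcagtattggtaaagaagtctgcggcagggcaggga
Neither Hopx window held any of the 5 motifs in these letters. Over all 32851 promoters of this length, 45.9% held the KLF letters, 6.75% the AP-1 letters, 9.56% the C/EBP letters, 6.91% the ETS letters and 1.79% the Grainyhead letters. A match describes the letters only.

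Levels are in FPKM (fragments scaled by gene length and by the size of the library), which allows levels of different genes to be compared. Depth was read from the steps of the low values as 17.4 to 19.6 M fragments in K10-spastin and 16.0 to 22.5 M in control. For a gene 1 kb long, a count of 3 came to between 0.134 and 0.187 FPKM over the 6 libraries. Spast itself was at 1431, 639 and 213 FPKM in K10-spastin 1 to 3, against 21.2, 24.0 and 21.4 FPKM in controls 1 to 3. Krt10, which marks the sorted cells, was abundant in all libraries but lower in K10-spastin, at 13075 to 17318 FPKM against 23698 to 32513 FPKM in control (limma adjusted p = 0.0438). It was 1 of 6 spinous markers, which summed to 31269 to 46232 FPKM in K10-spastin and 51688 to 67976 FPKM in control. Of these 6, only Krt10 was called, while 3 had a positive and 3 a negative change. Summed markers of other cells were low and, for some types, unequal between groups. Fibroblast markers summed to 0.791 to 3.03 FPKM in K10-spastin and 6.44 to 42.3 FPKM in control (7 markers, 1 of 4 tested lower). Erythroid markers summed to 3.79 to 17.4 FPKM in K10-spastin and 7.66 to 330.7 FPKM in control (6 markers, none of 4 tested called), and leukocyte markers to at most 2.10 FPKM in K10-spastin and 1.65 FPKM in control, with Cd3e and Cd207 at 0 in all 6. Periderm markers summed to 2.18 to 7.93 FPKM in K10-spastin and 9.50 to 47.8 FPKM in control (5 markers, 1 of 4 tested lower). Their part in the results below was not tested.

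All 10 factors passed the filter of a mean of 1 FPKM, and they were read from a limma fit over 11071 genes on log2(FPKM + 1), a scale that understates the change of low genes. Changes are K10-spastin minus control with their SE, and a gene was called at a Benjamini-Hochberg adjusted p under 0.05 over all genes tested. Hopx, Ehf and Grhl3 were higher in K10-spastin, and no factor was called lower. Against these 3 of 10 called, 11.0% of all tested genes were called, 5.14% as higher and 5.90% as lower. At an unadjusted limma p under 0.05 there were 5 of 10, with Prdm1 higher and Trp63 lower beside the called factors. No share of all tested genes was computed for the unadjusted p, so this count cannot show whether the factors stand out. The groups did not overlap in 6 of 10 factors, against 40.4% of all tested genes. The median log2 change of the factors was 0.30, against -0.09 over all tested genes. In bulk samples, fewer cells of a type and less RNA per cell cannot be told apart.

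**Figure D1:**
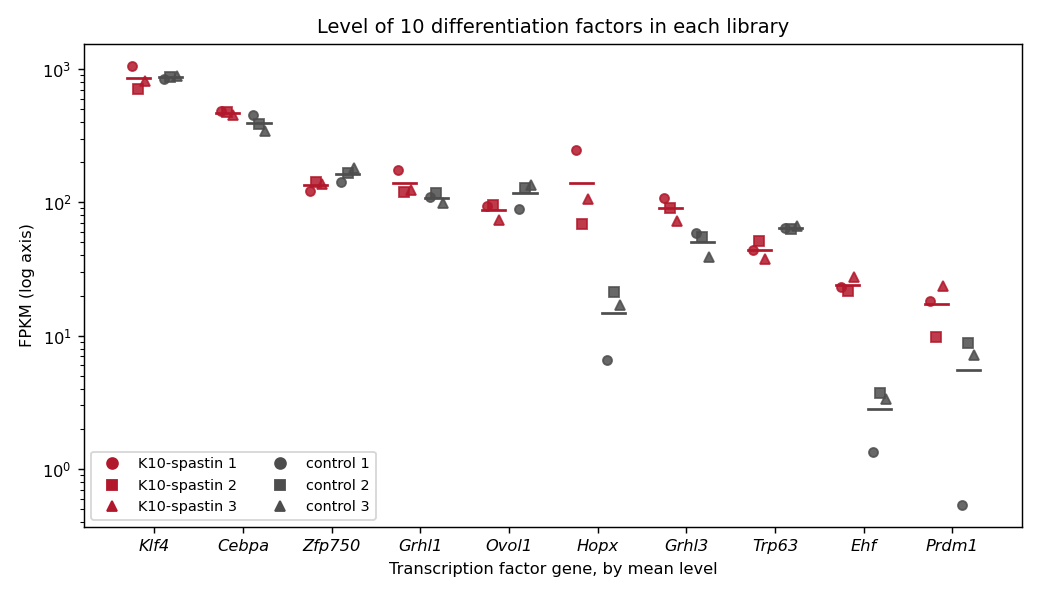
Level of each of the 10 factors in each library, in FPKM on a log axis, with K10-spastin in red, control in grey, one symbol per replicate and bars at group means. Hopx and Ehf are separated between groups by the widest gaps, Klf4 is the most abundant factor in both groups, and control 1 is the lowest control for Hopx, Ehf and Prdm1.

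Hopx (ENSMUSG00000059325) encodes a small homeodomain protein that does not bind DNA by itself. It stood at 246, 68.4 and 106 FPKM in K10-spastin 1 to 3, against 6.58, 21.2 and 16.9 FPKM in controls 1 to 3. All 3 K10-spastin libraries lay above all controls, and the libraries differed 3.60-fold among themselves in K10-spastin and 3.23-fold in control. The log2 change was 3.08 ± 0.54 (limma adjusted p = 0.0178). Without control 3 it was 3.24 and no longer called (adjusted p = 0.0662), and it was called in 16 of 17 other settings. An antisense gene, Hopxos, overlaps Hopx, and since strandedness is not given, reads of the pair cannot be told apart. Hopxos was at 6.14, 1.94 and 4.82 FPKM in K10-spastin, against 0.482, 3.91 and 3.24 FPKM in control, far below Hopx in K10-spastin.

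Ehf (ENSMUSG00000012350) encodes an ETS-family factor of epithelia. It stood at 23.3, 21.6 and 27.7 FPKM in K10-spastin 1 to 3, against 1.34, 3.70 and 3.35 FPKM in controls 1 to 3. The K10-spastin libraries were close together, and each was above every control. The log2 change was 2.79 ± 0.29 (limma adjusted p = 0.00480), and Ehf was called in 17 of 17 other settings, with changes of 2.47 to 3.18. At the depth of control 1, its 1.34 FPKM corresponded to about 168 fragments, with the exon length of GENCODE release M21.

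Elf3 and Elf5, which encode ETS factors of the same epithelial subfamily, were not called. Elf3 was at 9.96, 18.1 and 11.1 FPKM in K10-spastin, against 7.07, 17.5 and 21.6 FPKM in control (log2 change -0.14 ± 0.41, limma adjusted p = 0.851). Ehf was thus above Elf3 in every K10-spastin library and below it in every control. Within a library, the log2 ratio of Ehf to Elf3 was 0.24 to 1.25 in K10-spastin and -2.37 to -1.78 in control. Elf5, chosen for mention after its values were seen, was at 5.10, 3.78 and 12.0 FPKM in K10-spastin, against 0.736, 6.76 and 4.85 FPKM in control (adjusted p = 0.433).

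Grhl3 and Grhl1 encode Grainyhead-like factors, which act on genes of the barrier and of cell junctions. Grhl3 (ENSMUSG00000037188) stood at 108, 90.4 and 72.1 FPKM in K10-spastin 1 to 3, against 58.5, 54.9 and 39.0 FPKM in controls 1 to 3. The groups did not overlap, though the lowest K10-spastin and the highest control library were close. The log2 change was 0.82 ± 0.21, with a limma adjusted p of 0.0498 that only just passed. In 14 of 17 other settings Grhl3 was not called, with adjusted p from 0.0331 to 0.157 and changes from 0.64 to 0.97. The order of Grhl3 over K10-spastin 1 to 3 was also that of Spast, an order of 3 libraries that was not tested. That order is not particular to Grhl3, since Cebpa, Cebpb and Tgm1 had it too, while Hopx, Ehf and Prdm1 did not.

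Grhl1 (ENSMUSG00000020656), known to act on the desmosomal cadherin Dsg1a, stood at 176, 120 and 123 FPKM in K10-spastin, against 109, 117 and 98.5 FPKM in control. The groups did not overlap, with K10-spastin 1 apart from the others, and the log2 change was 0.34 ± 0.17 (limma adjusted p = 0.225). Grhl2, from the same family, was at 13.1, 23.1 and 18.3 FPKM in K10-spastin, against 29.3, 25.2 and 27.2 FPKM in control (log2 change -0.59 ± 0.21, adjusted p = 0.107). Of the summed FPKM of the family, Grhl3 held 33.7% to 38.8% in K10-spastin and 23.7% to 29.6% in control. Grhl2 held 4.41% to 9.89% in K10-spastin and at least 12.8% in each control, and Grhl1 the largest share in each library of both groups.

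Prdm1 (ENSMUSG00000038151) stood at 18.2, 9.80 and 23.7 FPKM in K10-spastin 1 to 3, against 0.540, 8.76 and 7.20 FPKM in controls 1 to 3. Each K10-spastin library was above each control, but K10-spastin 2 and control 2 were near each other and control 1 lay far below the rest. The log2 change was 1.79 ± 0.70 (limma adjusted p = 0.129), and no other setting called it (adjusted p 0.0802 to 0.243). Without control 1 the change was 0.94 (adjusted p = 0.175). In control 1, 0.540 FPKM corresponded to about 67.6 fragments, well above the counting floor of 3.

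**Figure D2:**
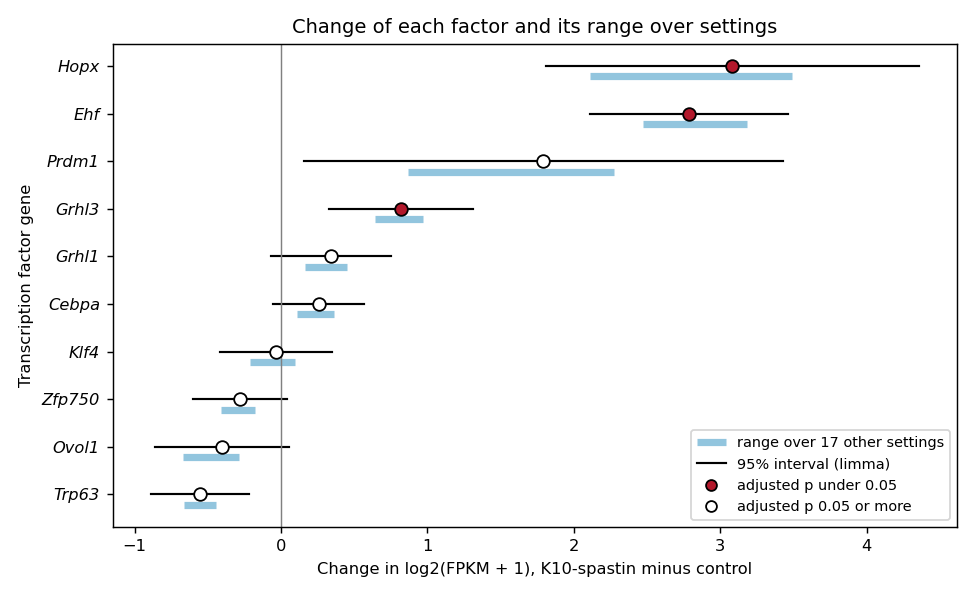
Change of each factor in log2(FPKM + 1), K10-spastin minus control, with its 95% interval from limma (black line) and its range over 17 other settings (blue bar). Filled points had an adjusted p under 0.05: Hopx, Ehf and Grhl3. The interval of Prdm1 is the widest, from 0.16 to 3.43.

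Trp63 (ENSMUSG00000022510) stood at 43.6, 51.0 and 37.9 FPKM in K10-spastin 1 to 3, against 63.8, 63.6 and 66.8 FPKM in controls 1 to 3. The controls were close together, and each K10-spastin library lay below them. The log2 change was -0.55 ± 0.14 with a limma adjusted p of 0.0514, just short of a call. It was called lower in 3 of 17 other settings, those with quantile normalization, with array weights and without K10-spastin 2. The gene-level value does not separate the long and short amino-terminal forms of p63.

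Klf4 (ENSMUSG00000003032) stood at 1054, 704 and 816 FPKM in K10-spastin 1 to 3, against 843, 866 and 892 FPKM in controls 1 to 3. The K10-spastin libraries lay on both sides of the controls, and the log2 change was -0.04 ± 0.16 (limma adjusted p = 0.906) with a 95% interval of -0.42 to 0.35. Its sign was positive in 3 of 17 other settings. Klf5, a related factor more typical of the basal layer, was at 242, 280 and 252 FPKM in K10-spastin and 335, 336 and 374 FPKM in control (log2 change -0.43 ± 0.12, adjusted p = 0.0567).

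Cebpa (ENSMUSG00000034957) stood at 480, 475 and 448 FPKM in K10-spastin 1 to 3, against 448, 389 and 343 FPKM in controls 1 to 3. K10-spastin 3 and control 1 were level, so the groups met, and the log2 change was 0.26 ± 0.13 (limma adjusted p = 0.227). Cebpb, its partner in spinous cells, stood at 540, 358 and 319 FPKM in K10-spastin, against 147, 232 and 224 FPKM in control. The Cebpb groups did not overlap, and its change of 1.00 ± 0.25 passed (adjusted p = 0.0476) but was not called in 12 of 17 other settings.

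Zfp750 and Ovol1 encode zinc-finger proteins, the first acting below p63 in human keratinocytes (ZNF750) and the second restraining proliferation as cells differentiate. Zfp750 (ENSMUSG00000039238) stood at 123, 143 and 137 FPKM in K10-spastin 1 to 3, against 142, 167 and 182 FPKM in controls 1 to 3. K10-spastin 2 and control 1 were level, and the log2 change was -0.28 ± 0.14 (limma adjusted p = 0.204). Ovol1 (ENSMUSG00000024922) stood at 93.9, 95.2 and 73.5 FPKM in K10-spastin, against 88.9, 128 and 134 FPKM in control. Control 1 lay within the K10-spastin range, and the log2 change was -0.40 ± 0.19 (adjusted p = 0.202). Zfp750 lies within Tbcd on the opposite strand. Tbcd was at 28.2, 32.1 and 31.0 FPKM in K10-spastin 1 to 3, against 41.0, 42.1 and 43.4 FPKM in controls 1 to 3. Reads from shared bases cannot be told apart without strandedness, and the part of Tbcd in the Zfp750 values was not tested. The pseudogene Gm31166, which has no values here, is annotated over Ovol1 on the opposite strand. It shares 692 identical bases with Ovol1, which may be the same genomic bases rather than a separate copy. The antisense genes AC126029.1 and Gm45091 are annotated over Ovol1 and Cebpa. A shorter stretch of Klf4, 242 bases at 91.3% identity, matches Gm48640.

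In both groups Klf4 was the most abundant factor and Cebpa the second, and neither overlapped the next factor down. In K10-spastin, Hopx, Grhl1 and Zfp750 followed at means of 140, 140 and 134 FPKM and overlapped in their ranges. Grhl3 and Ovol1, at 90.2 and 87.5 FPKM, overlapped each other, as did Ehf and Prdm1, at 24.2 and 17.2 FPKM, and Trp63 lay between at 44.2 FPKM. In control the order after Cebpa was Zfp750, Ovol1, Grhl1, Trp63, Grhl3, Hopx, Prdm1 and Ehf, from 164 down to 2.80 FPKM. There Ovol1 overlapped Grhl1, Hopx overlapped Prdm1, and Prdm1 overlapped Ehf. By its mean, Hopx was thus the third in K10-spastin and the eighth in control. Its K10-spastin range, 68.4 to 246 FPKM, also covered the ranges of Grhl3 and Ovol1. In K10-spastin 2, Hopx was below Grhl1, Zfp750, Ovol1 and Grhl3. Summed over the 10 factors, levels were 2366, 1778 and 1865 FPKM in K10-spastin 1 to 3, against 1762, 1820 and 1784 FPKM in controls 1 to 3.

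Ratios of (FPKM + 1) within a library hardly depend on the scaling between libraries. Of 10 pairs of factors compared, 8 did not overlap between groups, each at the exact permutation p of 0.1, two-sided, which is the smallest that 3 against 3 allows (0.125 adjusted over the pairs). The pairs hold factors chosen with earlier results of these data known. Each of the 8 holds a gene whose groups already did not overlap (Hopx, Ehf, Grhl3, Prdm1, Trp63 or Cebpb), so their separation adds no support. No share over other pairs of genes was computed. The mean log2 ratio of Hopx to Klf4 was -2.79 ± 0.64 in K10-spastin and -5.91 ± 0.79 in control (SD, n = 3 each), a difference of 3.12. Prdm1 to Trp63 was -1.38 ± 0.82 in K10-spastin and -3.72 ± 1.46 in control, with control 1 the lowest at -5.40. Grhl3 to Grhl1 was -0.62 ± 0.19 in K10-spastin and -1.10 ± 0.21 in control, and Grhl3 to Grhl2 was 2.27 ± 0.59 and 0.86 ± 0.31. Cebpa to Cebpb was 0.24 ± 0.36 in K10-spastin and 0.98 ± 0.54 in control. Klf4 to Klf5 and Ovol1 to Ovol2 overlapped between groups (exact permutation p = 0.3 and 0.4).

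**Figure D3:**
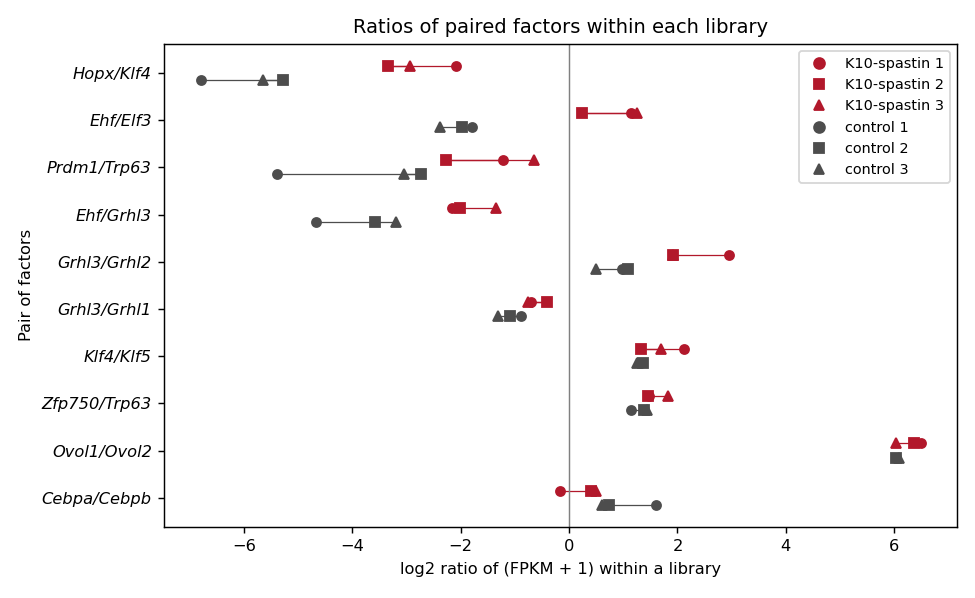
Ratio of (FPKM + 1) between 2 factors within each library, on a log2 axis, with K10-spastin in red above control in grey for each pair and one symbol per replicate. The ratio of Ehf to Elf3 lies above 0 in each K10-spastin library and below 0 in each control.

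Related genes were read from lists, each member from the same fit over all genes (11.0% called in all). Of 9 tested relatives of the factors, Cebpb was the 1 gene called, with a list median of -0.14. None of 23 other epidermal transcription factors was called by limma at this threshold, 6 had a positive and 17 a negative change, and their median was -0.33. Pou2f3, a POU-domain factor, was at 44.2, 61.2 and 82.0 FPKM in K10-spastin and 120, 102 and 101 FPKM in control, without overlap (log2 change -0.82 ± 0.22, adjusted p = 0.0571). For Tfap2a the change was -0.45 ± 0.13 (adjusted p = 0.0614) and for the nuclear receptor gene Rxra -0.61 ± 0.19 (adjusted p = 0.0767).

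Of 13 cofactors, 1 was called. Ctbp2, a corepressor that binds ZNF750 in human cells, was at 33.8, 52.5 and 33.2 FPKM in K10-spastin, against 16.7, 17.7 and 15.9 FPKM in control. The Ctbp2 groups did not overlap and the log2 change was 1.17 ± 0.20 (limma adjusted p = 0.0175), though the call was lost when any one control was left out (0.0565 to 0.0818). Ppp1r13l differed by 0.28 ± 0.12 (adjusted p = 0.168) and the deacetylase gene Hdac1 by -0.30 ± 0.25 (adjusted p = 0.455).

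Of 16 genes known as p63 targets, 2 fell and none rose, with a median of -0.74. Dst, a hemidesmosomal plakin, changed by -1.19 ± 0.24 and the lipoxygenase Alox12 by -1.10 ± 0.18 (limma adjusted p = 0.0256 and 0.0163). Each lost its call when any single control was left out (0.0661 to 0.104 and 0.0557 to 0.0732). So did each with the replicate block (0.0738 and 0.0537) and without control 1 and K10-spastin 1 together (0.0677 and 0.0550). Dst was also not called with no filter (0.0540). The basal keratin gene Krt5 differed by -0.78 ± 0.38 (adjusted p = 0.202) and the desmosomal gene Perp by -0.05 ± 0.17 (adjusted p = 0.871). Basal markers summed to 2495 to 4723 FPKM in K10-spastin and 4083 to 7171 FPKM in control (6 markers, 1 of 6 tested lower), and their part in the Trp63 values was not tested.

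Of 15 tested outer-layer genes known to depend on these factors, 6 rose and 1 fell, with a median of 1.07. The envelope crosslinking enzyme Tgm1, a known target of Grhl3, was at 403, 255 and 183 FPKM in K10-spastin, against 53.6, 80.5 and 71.7 FPKM in control (log2 change 1.96 ± 0.29, limma adjusted p = 0.0126). Cnfn, of the cornified envelope, changed by 2.80 ± 0.54 (adjusted p = 0.0227). Without control 3 neither was called (0.0597 for Tgm1 and 0.0797 for Cnfn). Cnfn was also not called without control 1 (0.0565), with no filter (0.0540) or with the replicate block (0.0542). Neither of the most abundant genes of the list was called. Lor, the main protein of the envelope, was at 2772, 3007 and 14562 FPKM in K10-spastin, against 1205, 5188 and 4608 FPKM in control, with overlap (change 0.69 ± 0.77, adjusted p = 0.583). The spinous gene Krtdap also overlapped between groups and differed by 0.21 ± 0.23 (adjusted p = 0.564). Arhgef19, known as a Grhl3 target in mouse and chosen for mention after its values were seen, was the gene that fell. It was at 12.7, 54.8 and 72.0 FPKM in K10-spastin, against 224, 178 and 167 FPKM in control (change -2.31 ± 0.57, adjusted p = 0.0455, not called in 8 of 17 other settings). Its order in K10-spastin was the reverse of that of Tgm1. Dsg1a, the cadherin gene tied to Grhl1 and likewise chosen after its values were seen, had a change of -0.34 ± 0.25 (adjusted p = 0.389).

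Granular markers summed to 4139, 3590 and 15182 FPKM in K10-spastin 1 to 3, against 1307, 5411 and 4781 FPKM in controls 1 to 3 (6 markers, 3 of 6 tested higher). Lor made up most of each sum, and the markers called were Ivl, Cnfn and Cdsn. Control 1 had the lowest sum and the lowest level of each marker but Tgm3 (48.4 FPKM, against 41.8 FPKM in K10-spastin 3). It was also the lowest library for Hopx, Ehf and Prdm1, and the part of this difference in their changes was not tested. Leaving out control 1 gave changes of 2.62 for Hopx (limma adjusted p = 0.0495) and 2.47 for Ehf (adjusted p = 0.0107).

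Of 6 genes known to be repressed by Ovol1 or Prdm1, 3 were tested and 2 fell. Myc, a growth-promoting factor, was at 52.4, 68.8 and 73.1 FPKM in K10-spastin, against 102, 127 and 144 FPKM in control (log2 change -0.93 ± 0.18, limma adjusted p = 0.0248). Id2, an inhibitor of helix-loop-helix factors, was at 0.136, 1.21 and 1.04 FPKM in K10-spastin, against 3.12, 3.98 and 4.66 FPKM in control (change -1.50 ± 0.30, adjusted p = 0.0254). In both genes the groups did not overlap. Myc was not called in 4 of 17 other settings, those without K10-spastin 2, control 2 or control 3 and with no filter (adjusted p 0.0503 to 0.106). Id2 was not called in 5 of 16, those without any one control, with no filter and with a pseudocount of 0.1, where its change was -2.49 (adjusted p 0.0565 to 0.106 over the 5). The Id2 value of K10-spastin 1 was below the 0.173 FPKM that 3 fragments make in that library for a gene 1 kb long. The change of Vim was -1.19 ± 0.61 (adjusted p = 0.227).

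**Figure D4:**
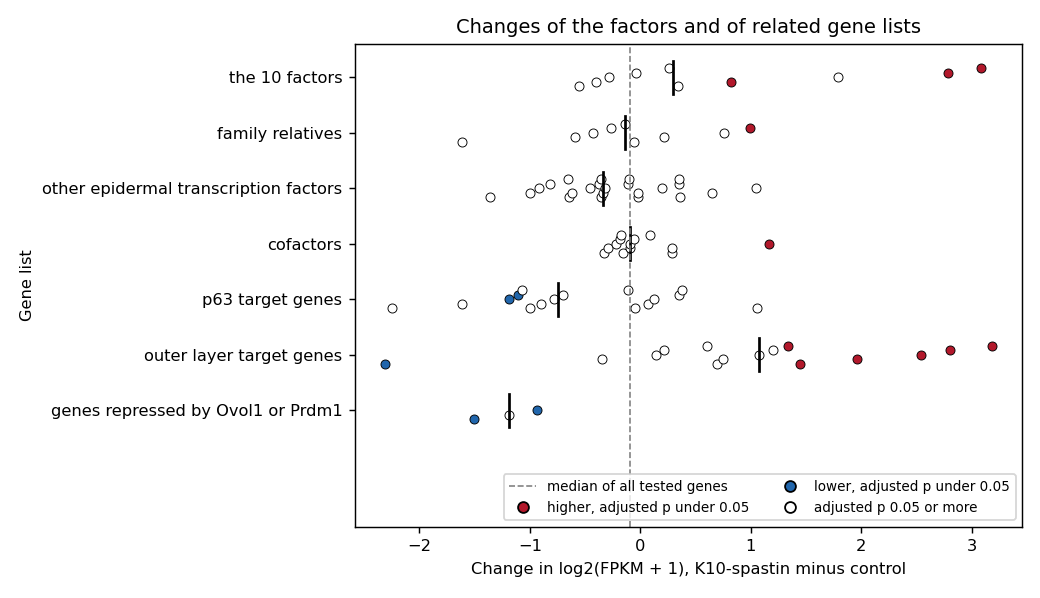
Change in log2(FPKM + 1), K10-spastin minus control, of each tested gene in 7 lists, with list medians as black bars and the median of all 11071 tested genes as a dashed line. Red and blue points were called higher and lower. The outer-layer genes have a median of 1.07 and the other epidermal transcription factors one of -0.33.

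The genes whose profiles lay nearest to the called factors were found by the root mean square difference, over 6 libraries, of log2 values less their control mean. Nearest to Hopx were Spink5, a protease inhibitor of the outer epidermis, at 0.14 and the carboxypeptidase gene Cpm at 0.19. Spink5 was at 230, 61.2 and 118 FPKM in K10-spastin, against 7.31, 22.6 and 18.1 FPKM in control. It had the same order of libraries as Hopx, which its choice by profile favours. Nearest to Ehf were Sprr2k, a small proline-rich envelope gene of a family with near-identical copies, at 0.22 and Arhgap40 at 0.26. Nearest to Grhl3 were the glycosyltransferase gene Extl1 at 0.13 and Rcn1, of the endoplasmic reticulum, at 0.14.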

How the data were processed

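The authors deposited gene-level FPKM for 35275 Ensembl identifiers in the 6 libraries. Per the submitters' processing notes, CASAVA and TopHat2 were used. No source used here gives the counter, the genome build, the annotation or whether strand was used. A table of gene names matched 34490 identifiers. The 10 factors and the gene lists were chosen with earlier results of these data known. Depth was estimated from the commonest step of low values over 14953 genes with 1 annotated transcript, which made 90.6% to 91.6% of the low values whole within 0.05. It describes counting precision only.

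All genes whose mean reached 1 FPKM were tested with limma 3.58.1 in R 4.3.3 (lmFit, eBayes with a trend, two-sided) on log2(FPKM + 1), without covariates. Since FPKM are not counts, no count test was run. The fit was checked on simulated data. Up to 4 genes were named per list, 2 by smallest p and 2 by highest mean level, and others are said to have been chosen after their values were seen. A gene that this rule names is not reported here. Alternatives covered the pseudocount (0.5 and 0.1), the filter (none and 5 FPKM), scaling, the variance model, library weights, the replicate block and leaving out libraries. Motifs were searched in the 250 bases before each start, without the 50 bases after it that the promoters also hold. Overlaps came from GENCODE release M21, copies from BLAST 2.17.0 (at least 90% identity over at least 200 bases), and other steps used Python 3.11.15, numpy 2.4.6, pandas 2.3.3, scipy 1.17.1 and matplotlib 3.10.9.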

Additional observations from a re-analysis of the deposited data

How the results depend on the processing

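Of 10 factors, 2 were called higher in most other settings and 3 with robust variances, array weights or without K10-spastin 3. Leaving out 1 library at a time gave 1 to 3 called higher, the lowest without control 3, and 0 to 1 called lower, the 1 being Trp63 without K10-spastin 2. Quantile normalization called 1 lower (Trp63) and array weights 2 (Trp63 and Ovol1). No called factor changed direction in any setting. Over all genes, 319 were higher and 348 lower with no filter, 1535 and 1771 with array weights, and 414 lower with the filter at 5 FPKM. Leaving out 1 library gave 113 to 691 higher and 32 to 701 lower, the lowest without control 3. With the replicate block, 274 were higher and 218 lower, and Hopx and Ehf were still called (limma adjusted p = 0.0461 and 0.0150) while Grhl3 was not (0.0524). Same-numbered libraries did not deviate together (r across genes -0.13, -0.38 and -0.05), and the labels name no shared litter or day, so the numbers were not taken as pairs. Of 90 recomputed ratios, 4 moved by more than the spread between libraries. The difference in Ovol1 to Ovol2 was 0.25, and 0.61 and 1.54 with pseudocounts of 0.5 and 0.1, since the mean of Ovol2 was below 1 FPKM. Without control 1 and K10-spastin 1 together, Cebpa to Cebpb differed by -0.23 and Hopx to Klf4 by 2.32. The floor of 3 fragments covers counting error only, while the 95% intervals rest on the spread between libraries, of which there were 3 a group.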
